A study of Mus musculus with 12 samples.

Results

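Genes for building sterols and fatty acids were followed in mouse embryonic stem (ES) cells grown with fetal bovine serum (FBS) or without serum. The set was chosen by gene name and holds 31 of the 27677 genes named on the array: 16 enzymes of sterol synthesis, 4 genes that control or carry sterol, and 11 genes of fatty acid synthesis and activation. Every probe of each gene was taken, which gave 60 of 41174 probes, with 32 in the sterol branch, 10 in the control group and 18 in the fatty acid branch. The array files list Msmo1 as Sc4mol and Me1 as Mod1. All 60 probes were tested, and 56 of them lay well above background on all 12 arrays. The other 4 are probes of Hmgcs1, Fdft1, Acly and Acaca. Of the 31 genes, 19 had at least 2 probes, and these are described probe by probe because some of them disagree.

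The study grew 2 reporter ES cell lines, Stella-GFP and Dazl-GFP, on γ-irradiated mouse embryonic fibroblast feeders with leukemia inhibitory factor (LIF), the cytokine that sustains mouse ES cells. The FBS arm had 15% FBS, and the other arm, labelled 2i condition, had serum-free B27N2 medium. Each line was measured on 1 one-colour array per arm at days 0, 3 and 10, so the 6 groups hold 2 arrays each. PD0325901, a MEK inhibitor, at 1 µM and Kenpaullone, a GSK3 inhibitor, at 5 µM are named in the labels without saying which arrays' cells received them, so medium and inhibitors cannot be told apart in a difference between arms. The labels also do not say what the serum-free cells had received at day 0. Each reporter stands for 1 line, and the p-values measure the spread between arrays of these 2 lines.

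Sterols are built from acetyl-CoA through mevalonate and isoprenoids to squalene, which is closed into lanosterol and trimmed in several steps to cholesterol. Fatty acids start from the same acetyl-CoA, which acetyl-CoA carboxylase and fatty acid synthase turn into palmitate for later elongation and desaturation. SREBP transcription factors drive both branches when membrane sterol is low, SREBP-2 mainly the sterol genes and SREBP-1c mainly the fatty acid genes, and Insig proteins hold them back when sterol is plentiful.

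Signals are given as relative signal, the processed intensity divided by the 75th percentile of its array, and in each pair of values the Stella-GFP array stands first. Changes are log2 differences from limma with their standard error (SE), and a probe was called at a Benjamini-Hochberg adjusted p under 0.05 over the 31458 probes tested. Between 64.0% and 74.4% of spots were well above background, and the 75th percentile ranged from 454 to 947, lowest on the 2 FBS day 3 arrays. The arrays came from 3 slides, and the arms were never on 1 slide together at day 0 or day 10. Markers of ES cells were high throughout, with a summed relative signal over 12 probes of 471 to 858 that varied between groups. The cultures also held feeder cells, and in such bulk samples fewer cells of a type and less RNA per cell cannot be told apart.

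The promoters of 4 sterol genes and 2 fatty acid genes that the results turn on are shown because their genes carry the day 3 and day 10 results. They are the RefSeq bases before the gene start in GRCm38.p6, written 5′ to 3′ on the strand of the gene, with CCAAT and TCACNCCAC, a form of the sterol response element, in capitals on either strand (CCAAT reads ATTGG on the opposite strand).
Hmgcs1, chr13:119690101-119690350, plus strand: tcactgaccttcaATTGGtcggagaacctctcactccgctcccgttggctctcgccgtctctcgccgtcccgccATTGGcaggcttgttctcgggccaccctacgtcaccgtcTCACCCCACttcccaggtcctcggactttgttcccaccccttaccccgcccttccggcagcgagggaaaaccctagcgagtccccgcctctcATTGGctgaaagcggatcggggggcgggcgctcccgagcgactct
Cyp51, chr5:4104698-4104947, minus strand: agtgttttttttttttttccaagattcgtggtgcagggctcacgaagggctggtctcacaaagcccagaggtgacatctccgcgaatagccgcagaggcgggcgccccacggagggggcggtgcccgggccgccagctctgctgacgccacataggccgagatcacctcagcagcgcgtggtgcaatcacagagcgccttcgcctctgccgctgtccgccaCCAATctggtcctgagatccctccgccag
Nsdhl, chrX:72918271-72918520, plus strand: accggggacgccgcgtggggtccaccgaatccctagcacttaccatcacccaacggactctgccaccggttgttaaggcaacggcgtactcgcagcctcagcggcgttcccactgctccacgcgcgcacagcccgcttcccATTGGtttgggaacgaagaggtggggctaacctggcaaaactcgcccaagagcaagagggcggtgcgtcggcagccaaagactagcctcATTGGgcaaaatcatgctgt
Hsd17b7, chr1:169969243-169969455, minus strand: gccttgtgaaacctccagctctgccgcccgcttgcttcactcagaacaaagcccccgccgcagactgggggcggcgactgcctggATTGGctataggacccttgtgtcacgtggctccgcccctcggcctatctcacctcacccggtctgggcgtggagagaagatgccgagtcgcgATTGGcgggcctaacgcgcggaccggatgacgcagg
Elovl6, chr3:129532136-129532385, plus strand: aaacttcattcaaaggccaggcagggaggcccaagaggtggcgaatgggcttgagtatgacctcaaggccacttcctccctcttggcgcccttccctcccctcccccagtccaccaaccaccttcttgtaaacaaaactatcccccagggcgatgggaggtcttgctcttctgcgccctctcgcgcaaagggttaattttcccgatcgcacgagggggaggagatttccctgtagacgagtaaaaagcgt
Me1, chr9:86695915-86696164, minus strand: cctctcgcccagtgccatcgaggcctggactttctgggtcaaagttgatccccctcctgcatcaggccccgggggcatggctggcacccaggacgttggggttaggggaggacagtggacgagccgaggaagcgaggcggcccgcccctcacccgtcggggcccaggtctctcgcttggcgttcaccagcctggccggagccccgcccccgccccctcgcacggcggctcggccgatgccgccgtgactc

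In the Hmgcs1 window, CCAAT stood 237, 176 and 45 bases before the gene start and TCACNCCAC stood 137 bases before it. In Cyp51 the single CCAAT lay 29 bases before the start, in Nsdhl they lay 109 and 20 bases before it, and in Hsd17b7 128 and 36 bases before it. The Elovl6 and Me1 windows hold neither motif. The Hsd17b7 sequence as shown is 213 bases long because it was cut where the RefSeq gene begins. For the counts that follow nothing was cut, and the 250 bases before each listed start were searched in every promoter. RefSeq promoters were matched for 24 of the 31 genes, with 30 promoters. Searched on both strands, CCAAT was in 13 of 16 sterol promoters (81.2%), in 4 of 5 control promoters and in 4 of 9 fatty acid promoters (44.4%), against 33.85% of 32851 promoters of the same length. GGGCGG, the GC box, was in 13 of 16, 4 of 5 and 4 of 9 of them, against 32.74% of all promoters. TCACNCCAC was in 1 of the 30 promoters, that of Hmgcs1, and in 1.05% of all promoters. A match describes the letters in the window only.

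Averaged over its genes, the sterol branch was highest on the 2 serum-free day 3 arrays and the fatty acid branch on the 2 FBS day 10 arrays. The sterol level, the mean over genes of the log2 deviation from each gene's own mean, was -0.28 and -0.11 at day 0, -0.19 and -0.12 at day 3, and 0.15 and -0.02 at day 10 in FBS. In serum-free medium it was -0.02 and 0.08, then 0.28 and 0.24, then -0.01 and 0.00. Both serum-free day 3 arrays thus lay above all the others. The fatty acid level was -0.18 and -0.08, then -0.06 and -0.06, then 0.39 and 0.38 in FBS, and -0.34 and -0.17, then 0.18 and 0.18, then -0.13 and -0.11 in serum-free medium. Here the 2 FBS day 10 arrays lay highest and the 2 serum-free day 3 arrays next. The control group had its highest values, 0.25 and 0.24, at day 3 in serum-free medium, just above the 0.23 of the Dazl-GFP array at day 0 in FBS. The branches therefore parted most at FBS day 10, where sterol minus fatty acid was -0.24 and -0.40, and at serum-free day 0, where it was 0.31 and 0.25.

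**Figure D1:**
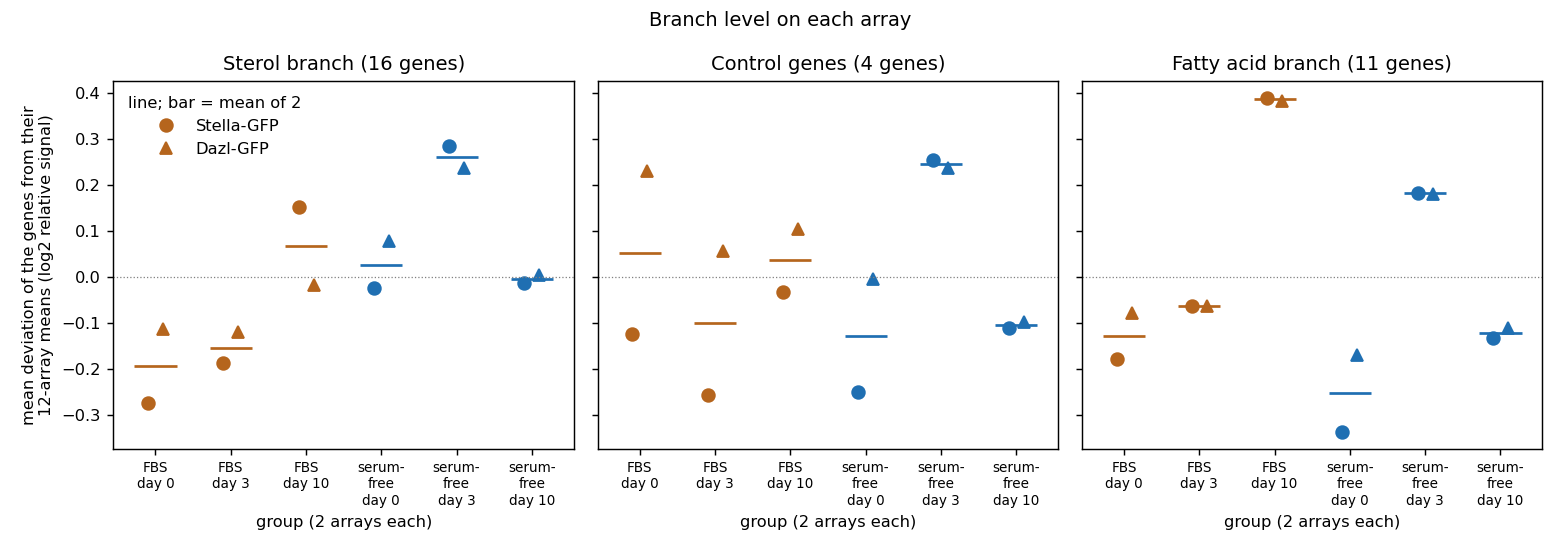
Branch level on each of the 12 arrays, as the mean over genes of the log2 deviation from the gene's own mean, by day for the FBS and the serum-free arm and for each line. Each gene is averaged over its probes above background on every array. The sterol level was 0.28 and 0.24 on the serum-free day 3 arrays, and the fatty acid level 0.39 and 0.38 on the FBS day 10 arrays.

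At day 3, 9 of the 16 sterol genes were higher in serum-free medium than in FBS at 1 or more probes. Of the 32 sterol probes, 14 were called higher and none lower, which is 43.8% of them where 11.2% of all probes were called higher and 12.8% lower. The 14 probes belong to 9 of the 16 genes: Hmgcs1, Fdft1, Sqle, Lss, Cyp51, Tm7sf2, Msmo1, Nsdhl and Hsd17b7. The other 7 genes had no called probe. Of the 14 probes 2, both of Hsd17b7, were called with slide as a block, and without any 1 of the 4 day 3 arrays 0 to 2 of the 60 member probes were. The median change was 0.66 over the 32 probes (0.78 in Stella-GFP and 0.61 in Dazl-GFP) and -0.14 over all probes tested, and 24 of the 32 changes were above 0. Of all probes called at day 3, 46.8% were higher in serum-free medium, a share that became 57.2% after quantile normalization, 60.7% in the authors' deposited series table and 22.3% after normexp background correction. The median of all probes moved with it, to -0.02, -0.03 and -0.29, and the sterol median lay between 0.47 and 0.79 over the settings tried. Within the 1 slide that held both arms at day 3, a comparison across lines, the sterol median was 0.64 and 25 of 32 probes were above 0.

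**Figure D2:**
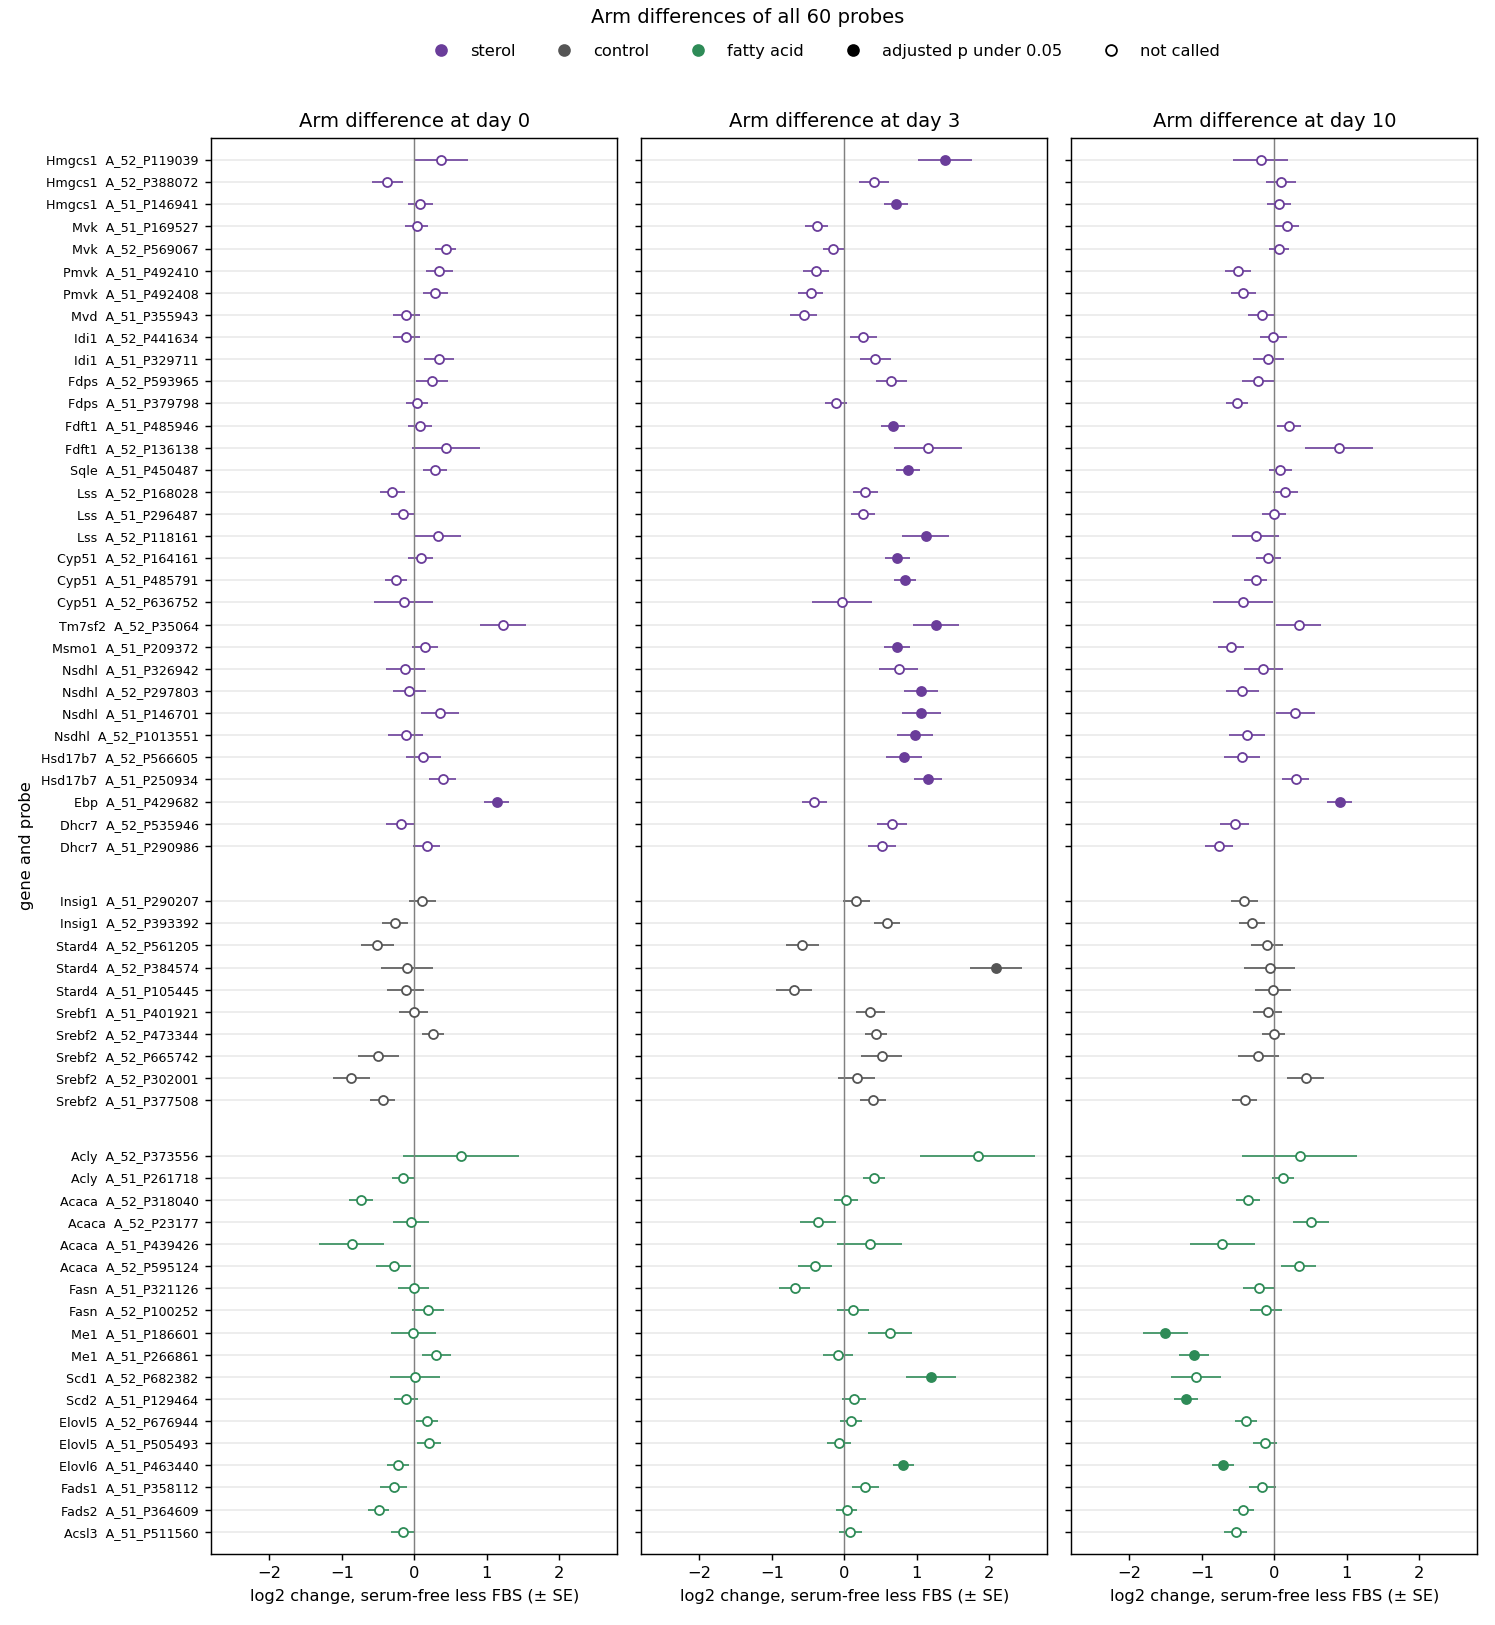
Log2 difference between arms (serum-free minus FBS) at days 0, 3 and 10 for every member probe, by branch, with called probes marked. At day 3 there were 14 called of 32 sterol probes, 1 of 10 control probes and 2 of 18 fatty acid probes, and at day 10 the called fatty acid probes lay below 0.

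Hmgcs1, the cytosolic HMG-CoA synthase that opens the pathway, was called at 2 of its 3 probes. At A_51_P146941 its relative signal was 33.1 and 31.5 at day 0, 29.7 and 28.8 at day 3 and 36.5 and 27.7 at day 10 in FBS, and 37.4 and 31.2, 50.3 and 45.7, and 32.3 and 34.2 at the same days in serum-free medium. Both serum-free day 3 arrays were above all 10 others, and the day 3 difference was 0.71 ± 0.17 (SE; limma adjusted p = 0.0234). At A_52_P119039 the signal was 0.0164 and 0.108 at day 0, 0.0377 and 0.102 at day 3 and 0.0465 and 0.110 at day 10 in FBS, and 0.0343 and 0.0854, 0.115 and 0.228, and 0.0369 and 0.107 at the same days in serum-free medium. This dim probe, above background on 11 arrays but not on the FBS day 0 Stella-GFP array, was higher in Dazl-GFP than in Stella-GFP throughout, and its day 3 difference of 1.39 ± 0.37 (limma adjusted p = 0.0351) dropped to 0.50 with slide as a block. At A_52_P388072 the change was 0.41 and was not called.

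The mevalonate and isoprenoid steps that follow were not called at day 3. Mevalonate kinase Mvk had changes of -0.38 and -0.15 at its 2 probes. Phosphomevalonate kinase Pmvk had -0.39 and -0.46, and Mvd, the decarboxylase that yields isopentenyl diphosphate, had -0.56 (limma adjusted p = 0.0619). Idi1, which isomerises isopentenyl diphosphate, had 0.26 and 0.43. The 5 probes of Mvk, Pmvk and Mvd thus all had negative changes, none past the test. Fdps, the farnesyl diphosphate synthase, had changes of opposite sign, 0.65 at A_52_P593965 and -0.12 at A_51_P379798.

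The squalene steps were higher. Fdft1, the squalene synthase that commits farnesyl diphosphate to sterol, had relative signals of 8.47 and 8.75 at day 0, 11.2 and 8.40 at day 3 and 11.2 and 8.93 at day 10 in FBS, and 9.75 and 8.44, 17.2 and 13.7, and 12.8 and 10.3 at the same days in serum-free medium at A_51_P485946. The 2 serum-free day 3 values were the highest of the 12, and the difference was 0.67 ± 0.17 (limma adjusted p = 0.0275). Its second probe, A_52_P136138, was above background on both serum-free day 3 arrays and on neither FBS day 3 array, which gives at least 1.35-fold higher signal but no call. Sqle, the squalene epoxidase and a rate-limiting step, had relative signals of 7.82 and 8.95 at day 0, 8.11 and 8.06 at day 3 and 10.2 and 10.3 at day 10 in FBS, and 9.16 and 11.3, 14.4 and 15.3, and 9.62 and 12.3 at the same days in serum-free medium. Again the 2 serum-free day 3 arrays stood above every other, with a difference of 0.88 ± 0.16 (limma adjusted p = 0.0112).

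Lss, the cyclase that closes the ring to lanosterol, was called at 1 of 3 probes. At A_52_P118161 its relative signal was 1.14 and 2.25 at day 0, 1.14 and 0.956 at day 3 and 2.51 and 1.83 at day 10 in FBS, and 1.81 and 2.22, 2.30 and 2.23, and 1.61 and 2.01 at the same days in serum-free medium. The FBS day 3 arrays and the FBS day 0 Stella-GFP array were low, the serum-free day 3 arrays lay within the range of the others, and the day 3 difference was 1.12 ± 0.32 (limma adjusted p = 0.0428). The other 2 Lss probes had differences of 0.29 and 0.25 and were not called.

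Most enzymes that trim lanosterol were higher too. Cyp51, the lanosterol 14-alpha-demethylase, had relative signals of 0.532 and 0.563 at day 0, 0.456 and 0.406 at day 3 and 0.708 and 0.655 at day 10 in FBS, and 0.465 and 0.456, 0.838 and 0.706, and 0.566 and 0.571 at the same days in serum-free medium at A_51_P485791. The groups did not overlap at day 3, and the difference was 0.84 ± 0.15 (limma adjusted p = 0.0108). At A_52_P164161 Cyp51 had 1.26 and 1.32 at day 0, 0.841 and 0.929 at day 3 and 1.69 and 1.38 at day 10 in FBS, and 1.35 and 1.39, 1.52 and 1.41, and 1.35 and 1.53 at the same days in serum-free medium. Here the FBS day 3 arrays were the lowest of the 12 and the difference was 0.73 ± 0.17 (limma adjusted p = 0.0227). At A_52_P636752 the lines moved apart, by -0.93 in Stella-GFP and 0.86 in Dazl-GFP, and the mean of -0.04 ± 0.41 was not called.

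Tm7sf2, a sterol 14-reductase, had relative signals of 1.21 and 2.62 at day 0, 3.70 and 3.45 at day 3 and 4.81 and 4.64 at day 10 in FBS, and 3.82 and 4.55, 9.04 and 8.09, and 6.31 and 5.60 at the same days in serum-free medium. The serum-free day 3 arrays were the 2 highest, the FBS day 0 Stella-GFP array the lowest, and the day 3 difference was 1.26 ± 0.32 (limma adjusted p = 0.0282). Msmo1, the methylsterol monooxygenase that removes the methyl groups at carbon 4, had 33.1 and 41.3 at day 0, 32.2 and 37.9 at day 3 and 63.4 and 53.2 at day 10 in FBS, and 39.5 and 42.6, 57.5 and 58.2, and 35.9 and 41.0 at the same days in serum-free medium. Serum-free day 3 lay above FBS day 3 without overlap but level with FBS day 10, and the difference was 0.73 ± 0.18 (limma adjusted p = 0.0265).

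Nsdhl, the decarboxylating dehydrogenase that acts with Msmo1, was called at 3 of its 4 probes. At A_52_P297803 its relative signal was 1.11 and 1.38 at day 0, 0.683 and 0.840 at day 3 and 1.67 and 1.36 at day 10 in FBS, and 0.963 and 1.45, 1.54 and 1.61, and 1.14 and 1.07 at the same days in serum-free medium. At A_52_P1013551 it was 0.880 and 1.19 at day 0, 0.637 and 0.646 at day 3 and 1.32 and 1.05 at day 10 in FBS, and 0.766 and 1.16, 1.34 and 1.19, and 0.909 and 0.894 at the same days in serum-free medium. At both, FBS day 3 held the 2 lowest arrays, and the differences were 1.06 ± 0.23 and 0.98 ± 0.25 (limma adjusted p = 0.0180 and 0.0287). At A_51_P146701 it was 0.10 and 0.151 at day 0, 0.0833 and 0.115 at day 3 and 0.106 and 0.170 at day 10 in FBS, and 0.140 and 0.176, 0.213 and 0.197, and 0.181 and 0.148 at the same days in serum-free medium. The serum-free day 3 arrays were the 2 highest there, with a difference of 1.06 ± 0.27 (limma adjusted p = 0.0277). At A_51_P326942 the change was 0.75, in the same direction (limma adjusted p = 0.0786).

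Hsd17b7, the 3-ketosteroid reductase of the same complex, was called at both probes. At A_51_P250934 its relative signal was 0.659 and 0.617 at day 0, 0.588 and 0.680 at day 3 and 0.695 and 0.771 at day 10 in FBS, and 0.737 and 0.945, 1.49 and 1.33, and 0.965 and 0.832 at the same days in serum-free medium. The serum-free day 3 arrays stood above the 10 others, and the difference was 1.16 ± 0.19 (limma adjusted p = 0.00818). At A_52_P566605 it was 0.422 and 0.424 at day 0, 0.220 and 0.329 at day 3 and 0.437 and 0.571 at day 10 in FBS, and 0.371 and 0.574, 0.414 and 0.548, and 0.405 and 0.331 at the same days in serum-free medium. FBS day 3 held the 2 lowest arrays, and the difference was 0.82 ± 0.25 (limma adjusted p = 0.0480). Dhcr7, the 7-dehydrocholesterol reductase that makes cholesterol, had 0.66 and 0.52, just short of the test (limma adjusted p = 0.0516 and 0.0852). Ebp, the sterol isomerase between them, had a negative change and is described with day 0.

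Of the control group, 1 of 10 probes was called higher at day 3 (10.0%), a share near the 11.2% of all probes called higher, and the median change was 0.38. Stard4, a carrier that moves sterol between membranes, had 3 probes that disagree. At A_52_P384574 its relative signal was 0.623 and 1.27 at day 0, 0.359 and 0.678 at day 3 and 0.769 and 1.20 at day 10 in FBS, and 0.706 and 0.972, 2.17 and 2.04, and 1.06 and 0.797 at the same days in serum-free medium. The 2 serum-free day 3 arrays were the highest by a wide margin, and the difference of 2.09 ± 0.35 (limma adjusted p = 0.00866) was the largest of the 60 probes. At A_52_P561205 the signal was 0.435 and 0.490 at day 0, 0.280 and 0.413 at day 3 and 0.286 and 0.240 at day 10 in FBS, and 0.280 and 0.376, 0.236 and 0.220, and 0.237 and 0.252 at the same days in serum-free medium. At A_51_P105445 it was 0.481 and 0.529 at day 0, 0.460 and 0.473 at day 3 and 0.430 and 0.273 at day 10 in FBS, and 0.426 and 0.506, 0.297 and 0.279, and 0.296 and 0.387 at the same days in serum-free medium. At these 2 probes the serum-free day 3 arrays were at the low end, with changes of -0.58 ± 0.22 and -0.70 ± 0.25 that were not called (limma adjusted p = 0.0951 and 0.0796). Over the 12 arrays the 3 probes correlated pairwise at -0.62 to 0.85, a description over arrays that share lines and slides.

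None of the regulator probes was called at day 3. Insig1, which retains SREBP in the endoplasmic reticulum and is itself an SREBP target, had 0.59 at A_52_P393392 (limma adjusted p = 0.0501) and 0.16 at A_51_P290207. Srebf2, which encodes SREBP-2, had changes of 0.43, 0.52, 0.17 and 0.39 at its 4 probes, all above 0 and none called. Srebf1, which encodes the SREBP-1 forms, had 0.36.

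In the fatty acid branch 2 of 18 probes were called at day 3, both higher (11.1%), a share near the 11.2% of all probes called higher, and the median change was 0.10. Scd1, a stearoyl-CoA desaturase that makes oleate, had relative signals of 1.36 and 2.96 at day 0, 2.00 and 2.06 at day 3 and 4.23 and 4.59 at day 10 in FBS, and 1.58 and 2.56, 4.77 and 4.50, and 2.37 and 1.84 at the same days in serum-free medium. Both serum-free day 3 arrays were above both FBS day 3 arrays, at a level like FBS day 10, and the difference was 1.19 ± 0.34 (limma adjusted p = 0.0429). Elovl6, the elongase that takes palmitate to stearate, had 8.39 and 7.87 at day 0, 7.14 and 6.46 at day 3 and 13.9 and 13.1 at day 10 in FBS, and 7.10 and 6.79, 13.0 and 10.9, and 9.21 and 7.39 at the same days in serum-free medium. The same pattern held, with a day 3 difference of 0.81 ± 0.15 (limma adjusted p = 0.0108).

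The enzymes that make palmitate were not called at day 3. Acly, ATP citrate lyase, which supplies cytosolic acetyl-CoA, had a difference of 0.41 at A_51_P261718. At A_52_P373556 it was above background on the 2 serum-free day 3 arrays alone, at least 1.53-fold above FBS day 3 but with no call. Acaca, acetyl-CoA carboxylase, had 0.02, -0.36, 0.35 and -0.40 at its 4 probes. Fasn, fatty acid synthase, had -0.68 at A_51_P321126 (limma adjusted p = 0.0526) and 0.11 at A_52_P100252. Me1, malic enzyme and a source of NADPH, had 0.63 and -0.08. Scd2, the second desaturase, had 0.14, and the elongase Elovl5 had 0.09 and -0.07. The desaturases of polyunsaturated fatty acids, Fads1 and Fads2, had 0.29 and 0.03, and Acsl3, which activates fatty acids with coenzyme A, had 0.08.

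Feeder and differentiation markers moved between the arms at day 3 as well. Over 35 fibroblast marker probes the summed relative signal was 90.4 to 155 in FBS and 41.9 to 48.9 in serum-free medium, with 20 of 28 tested probes lower, 3 higher and a median change of -2.30. Over 22 primitive endoderm probes it was 2.39 to 2.56 in FBS and 8.93 to 18.0 in serum-free medium, with 10 of 19 higher and a median of 1.64. Macrophage markers summed to 5.81 to 8.92 in FBS and 2.61 to 3.95 in serum-free medium, with 6 of 13 lower and 2 higher. Their part in the day 3 differences was not tested. Of the 17 called member probes the 2 of Hsd17b7 alone held with slide as a block, with all 17 signs kept and limma adjusted p from 0.0444 to 0.511. The block moved Lss A_52_P118161 to 0.36, Tm7sf2 to 0.77 and Hsd17b7 A_52_P566605 to 1.46, and with it Me1 A_51_P186601 was called as well, at 1.49. Leaving out 1 day 3 array at a time, 1 member probe was called without FBS Stella-GFP, 2 without FBS Dazl-GFP, 0 without serum-free Stella-GFP and 2 without serum-free Dazl-GFP.

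At day 10 the members called lower in serum-free medium were all of the fatty acid branch. Of its 18 probes 4 were called lower, in Me1, Scd2 and Elovl6, where 3.01% of all probes were called lower and 1.83% higher, and the median change was -0.38 against 0.10 over all probes. Of all probes called at day 10, 37.9% were higher, a share that was 53.5% after normexp background correction and 24.4% in the authors' deposited series table. The fatty acid median lay between -0.48 and -0.27 over the settings tried. The sterol median was -0.12, with opposite signs in the lines (-0.29 in Stella-GFP and 0.05 in Dazl-GFP), and the 1 sterol probe called, Ebp, was higher.

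Scd2 had relative signals of 31.9 and 35.7 at day 0, 34.8 and 37.2 at day 3 and 79.4 and 68.1 at day 10 in FBS, and 28.2 and 34.4, 39.5 and 39.6, and 30.7 and 32.6 at the same days in serum-free medium. The 2 FBS day 10 arrays were far above the other 10, which lay close together, and the day 10 difference was -1.22 ± 0.17 (limma adjusted p = 0.0137). Me1 had 1.11 and 0.971 at day 0, 1.60 and 1.52 at day 3 and 2.38 and 2.39 at day 10 in FBS, and 1.08 and 1.52, 1.32 and 1.64, and 0.994 and 1.23 at the same days in serum-free medium at A_51_P266861. At A_51_P186601 it had 0.800 and 0.766 at day 0, 0.575 and 0.890 at day 3 and 1.37 and 1.90 at day 10 in FBS, and 0.552 and 1.09, 0.899 and 1.36, and 0.638 and 0.510 at the same days in serum-free medium. FBS day 10 was highest at both probes, with day 10 differences of -1.11 ± 0.20 and -1.50 ± 0.31 (limma adjusted p = 0.0299 and 0.0390). Elovl6, whose values are given above, differed by -0.71 ± 0.15 (limma adjusted p = 0.0414), so it was higher in serum-free medium at day 3 and lower at day 10. Scd1 had a difference of -1.08 without a call (limma adjusted p = 0.117).

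**Figure D3:**
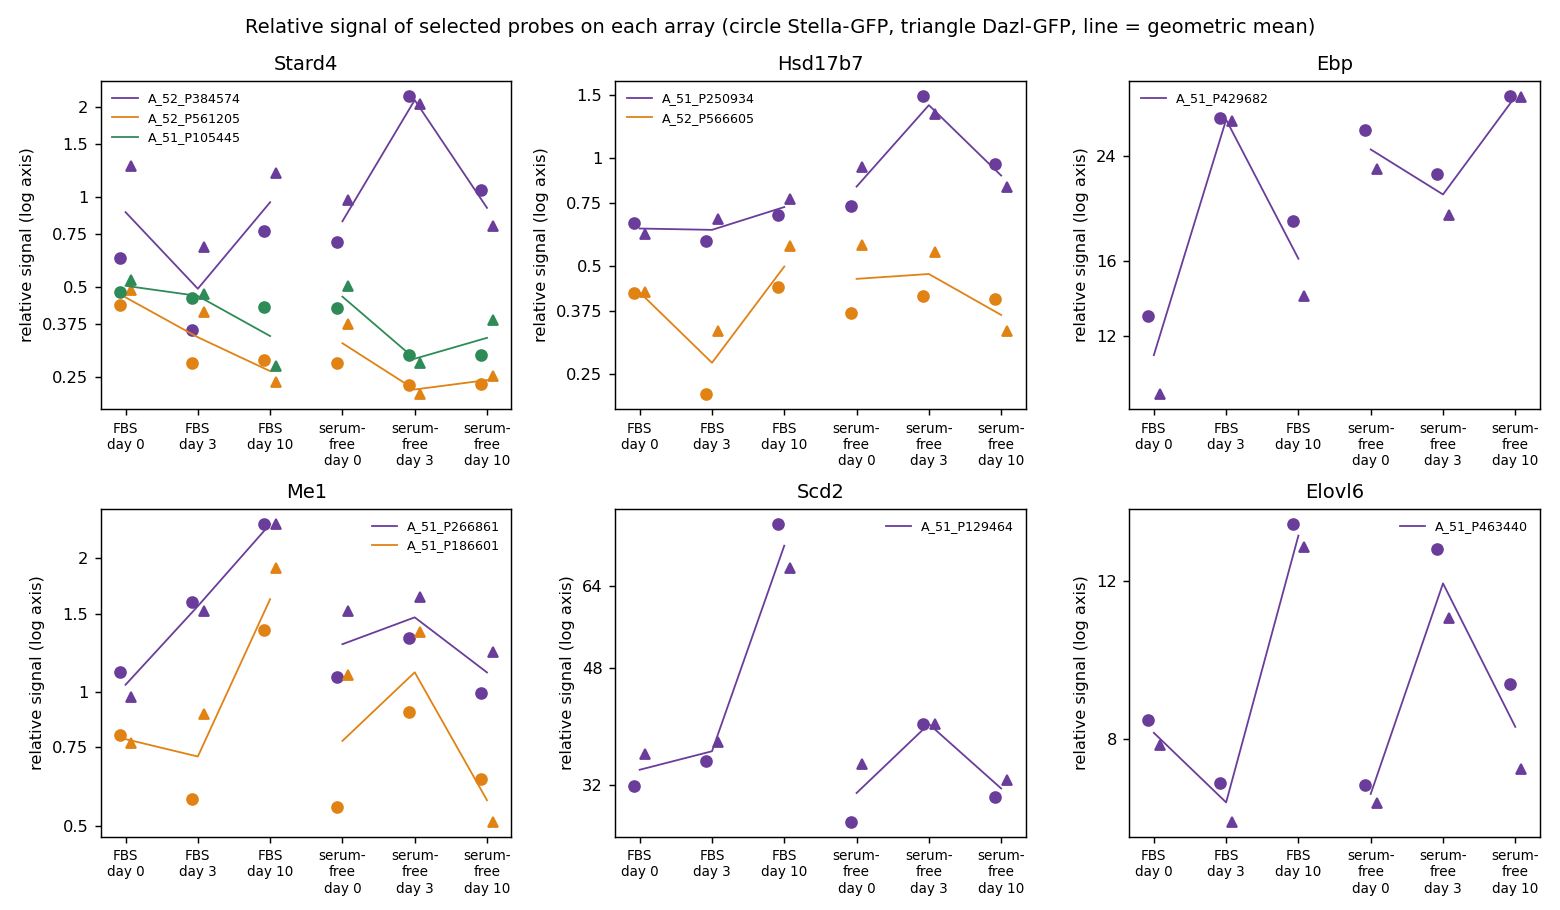
Relative signal of selected probes on a log axis by day, arm and line: 3 probes of Stard4, 2 of Hsd17b7, Ebp, 2 of Me1, Scd2 and Elovl6. Scd2 read 79.4 and 68.1 on the FBS day 10 arrays and from 28.2 to 39.6 on the other 10, and the Stard4 probe A_52_P384574 read 2.17 and 2.04 on the serum-free day 3 arrays.

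Fibroblast markers summed to 69.5 to 93.3 in FBS and 43.1 to 67.0 in serum-free medium at day 10, with 6 of 28 tested probes lower, and primitive endoderm markers to 2.55 to 2.74 and 1.64 to 2.15. ES cell markers summed to 816 to 858 in FBS and 471 to 660 in serum-free medium, with 1 of 12 probes called lower and 0 higher. Their part in the result was not tested. With slide as a block none of the 5 called member probes kept its call (limma adjusted p from 0.354 to 0.902). All 5 signs were kept, but Me1 A_51_P186601 moved to -0.15. In the fit without the block 16 of the 60 had an unadjusted limma p under 0.05, as did 7631 of the 31458 probes tested. Without any 1 of the 4 FBS or serum-free day 10 arrays, or of the 4 day 3 arrays, 0 or 1 were called: 0 without either FBS day 10 array or serum-free day 10 Dazl-GFP, and 1 without the others.

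Within the FBS arm, 3 fatty acid probes and 1 sterol probe were called higher at day 10 than at day 0. Together their share was near that of all probes. The comparison shares the FBS day 10 arrays with the arm difference at day 10 and is not independent of it. Scd2 rose by 1.12 ± 0.17, Me1 by 1.20 ± 0.20 at A_51_P266861 and Elovl6 by 0.73 ± 0.15 (limma adjusted p = 0.00767, 0.0115 and 0.0204). The other Me1 probe, A_51_P186601, had a change of 1.05 and was not called (limma adjusted p = 0.0677). Tm7sf2 was the 1 sterol probe that rose, by 1.41 ± 0.32 (limma adjusted p = 0.0294), and by 0.83, not called, without the low FBS day 0 Stella-GFP array. These are 4 of 60 probes, 6.67%, against 7.12% of all probes called higher, and the fatty acid median was 0.40 against -0.04 over all probes. With slide as a block 1 of the 4, Me1, held. Without FBS day 10 Stella-GFP none was called, without FBS day 10 Dazl-GFP 1, without FBS day 0 Stella-GFP 2 and without FBS day 0 Dazl-GFP 7. Fibroblast markers summed to 69.3 to 69.9 at day 0 and 69.5 to 93.3 at day 10 in FBS. ES cell markers summed to 649 to 673 at day 0 and 816 to 858 at day 10, with 5 of 12 probes called higher and 1 lower. The part of these markers in the result was not tested.

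At day 3 in FBS 2 member probes were called against day 0, where 11.7% of all probes were. Ebp rose by 1.30 ± 0.17 and Acaca fell at A_52_P318040 (change -0.81 ± 0.17) (limma adjusted p = 0.00822 and 0.0250). That Acaca probe had relative signals of 1.03 and 1.10 at day 0, 0.654 and 0.564 at day 3 and 0.758 and 0.658 at day 10 in FBS, and 0.592 and 0.691, 0.632 and 0.600, and 0.564 and 0.535 at the same days in serum-free medium. The 2 FBS day 0 arrays were the highest and the other 10 lay close together. The other Acaca probes were not called and did not all fall. From day 0 to day 3 in FBS, A_52_P23177 went from 0.109 and 0.0665 to 0.140 and 0.0790. Over the same days A_52_P595124 went from 0.0926 and 0.0863 to 0.0969 and 0.102. At A_51_P439426 the change was -0.75. The sterol median was -0.22, the control median -0.34 and the fatty acid median 0.12, beside 0.05 over all probes. Neither call held with slide as a block or without either FBS day 3 array.

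In serum-free medium 8 member probes rose from day 0 to day 3, 13.3% of the 60 beside 6.97% of all probes called higher. In the sterol branch they were Hmgcs1 A_52_P119039 at 1.58 ± 0.37, Fdft1 A_51_P485946 at 0.76 ± 0.17, Cyp51 A_51_P485791 at 0.74 ± 0.15 and Hsd17b7 A_51_P250934 at 0.75 ± 0.19 (limma adjusted p = 0.0335, 0.0265, 0.0235 and 0.0398). Stard4 A_52_P384574 rose by 1.34 ± 0.35 and Elovl6 by 0.78 ± 0.15 (limma adjusted p = 0.0441 and 0.0185). Of the genes with several probes, 5 had a call here and none was called at all its probes. For 2 of them, Cyp51 and Stard4, another probe changed in the opposite direction. The dim Hmgcs1 probe was the 1 called of 3, whose changes ran from 0.15 to 1.58. Fads1, the delta-5 desaturase, had relative signals of 1.33 and 1.91 at day 0, 1.86 and 1.68 at day 3 and 2.30 and 2.40 at day 10 in FBS, and 1.28 and 1.34, 2.10 and 2.22, and 1.94 and 2.26 at the same days in serum-free medium. Fads2, the delta-6 desaturase, had 2.12 and 1.67 at day 0, 2.20 and 1.98 at day 3 and 2.58 and 2.21 at day 10 in FBS, and 1.49 and 1.20, 2.23 and 2.05, and 1.94 and 1.62 at the same days in serum-free medium. Serum-free day 0 held the lowest array of each, and by day 3 they rose by 0.72 ± 0.19 and 0.68 ± 0.15 (limma adjusted p = 0.0428 and 0.0256).

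The branch medians in serum-free medium were 0.16 for sterol, 0.46 for control and 0.30 for fatty acid at day 3, beside -0.01 over all probes. In the same order they were 0.31, 0.52 and 0.47 in Stella-GFP and 0.08, 0.39 and 0.16 in Dazl-GFP. All 8 calls were in the same direction. With slide as a block 6 of the 8 held. Without any 1 of the serum-free day 0 or day 3 arrays no member was called, without either FBS day 3 array 4 were, without either FBS day 10 array 5, and without either FBS day 0 array 12. Fibroblast markers summed to 56.2 to 64.6 at serum-free day 0 and 41.9 to 48.9 at day 3, and their part in the result was not tested. By day 10 no member was called against day 0 by limma, where 4.3% of all probes were. There 8 of the 60 members and 7886 of the 31458 probes tested had an unadjusted limma p under 0.05. The medians were -0.01, 0.04 and 0.04 beside 0.12 over all probes. These medians and the arm differences share arrays and are not independent of each other.

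At day 0 Ebp, the isomerase that shifts the ring double bond, was the 1 member called between the arms. Ebp had relative signals of 13.0 and 9.62 at day 0, 27.8 and 27.4 at day 3 and 18.7 and 14.0 at day 10 in FBS, and 26.5 and 22.8, 22.4 and 19.1, and 30.2 and 30.1 at the same days in serum-free medium. In FBS it was low at day 0, high at day 3 and between them at day 10, whereas in serum-free medium it was high at every day. The difference between arms was 1.14 ± 0.17 at day 0, -0.41 ± 0.17 at day 3 and 0.90 ± 0.17 at day 10 (limma adjusted p = 0.0339, 0.115 and 0.0330). At day 0 that is 1 of 60 member probes, a share near the 1.68% of all probes called. An unadjusted limma p under 0.05 was found for 7 of the 60 members and for 6950 of the 31458 probes tested. The day 0 medians were 0.11 for sterol, -0.20 for control and -0.08 for fatty acid. Primitive endoderm markers summed to 2.52 to 5.61 in FBS and 8.58 to 14.2 in serum-free medium at day 0, with 2 of 19 tested probes higher. Fibroblast markers summed to 69.3 to 69.9 and 56.2 to 64.6, with 1 of 28 lower. Their part in the result was not tested. With slide as a block, the Ebp difference was 1.14 with limma adjusted p = 0.359, and without any 1 of the 12 arrays, at 1.01 to 1.27, it was not called.

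The day 3 change of Ebp differed between arms by -1.55 ± 0.24 (serum-free minus FBS; limma adjusted p = 0.0400). It was the 1 member called in that test, where 1.43% of all probes were. An unadjusted p under 0.05 was found for 25 of the 60 members and for 7932 of the 31458 probes tested. No sterol gene was called higher there, where the sterol median was 0.59 beside -0.05 over all probes. The day 3 changes of the 9 sterol genes called at day 3 are therefore not shown to differ between the arms, although their day 3 levels differed. For the day 10 changes limma called no member and 0.0223% of all probes. There 10 of the 60 members and 5893 of the 31458 probes tested had an unadjusted p under 0.05. The Scd2, Me1 and Elovl6 changes at day 10 are therefore not shown to differ between the arms by that test, although their day 10 levels differed. Their differences of day 10 changes were -1.10 ± 0.24, -1.41 ± 0.29 and -0.48 ± 0.21 (limma adjusted p = 0.113, 0.103 and 0.270).

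**Figure D4:**
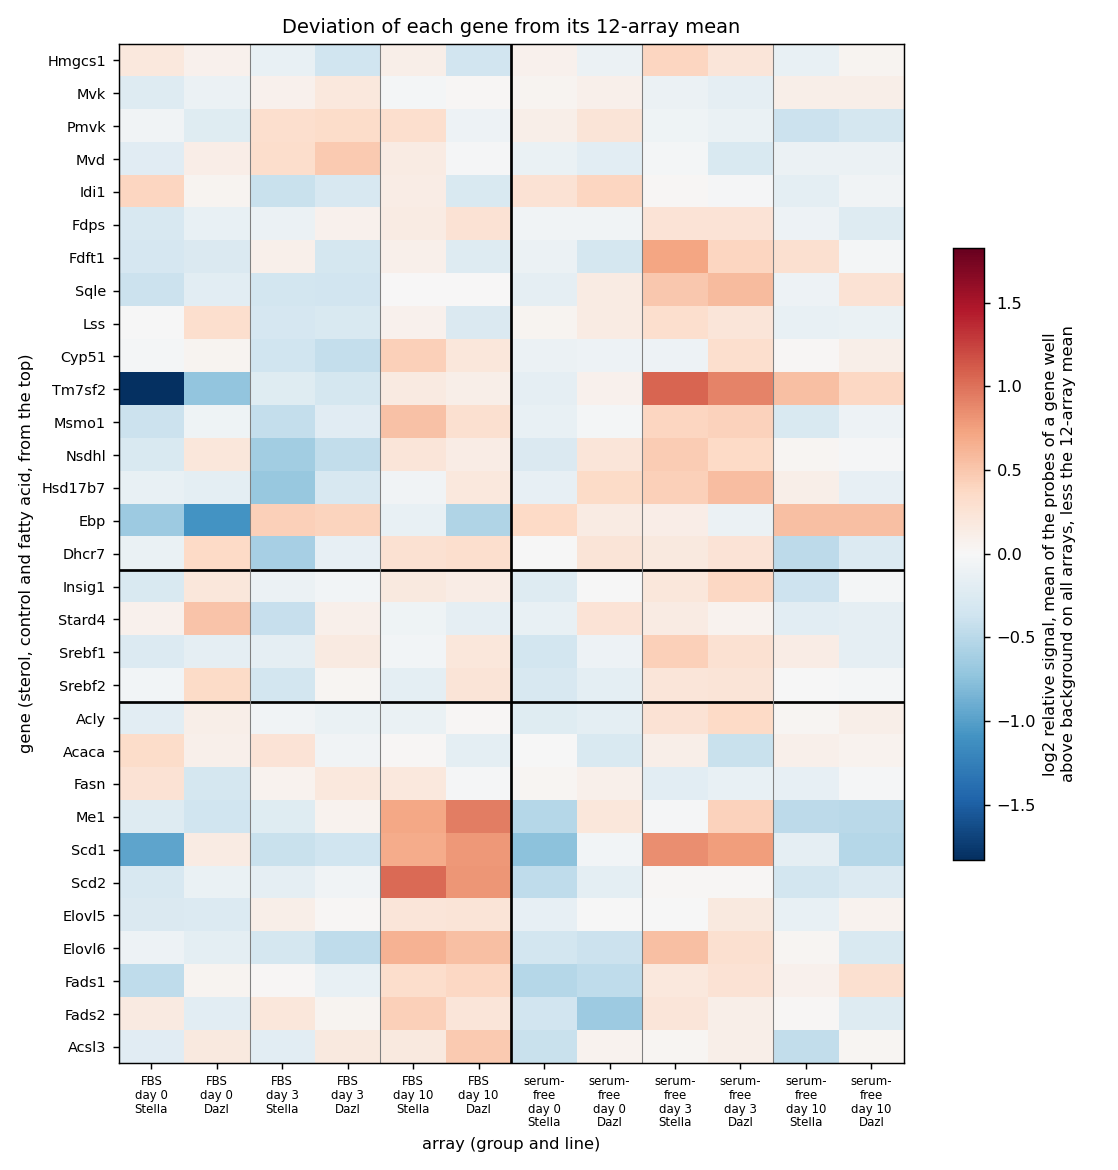
Log2 deviation of each of the 31 genes from its own mean on the 12 arrays, averaged over its probes above background on every array, with genes ordered by branch and arrays by arm, day and line. The serum-free day 3 columns are high over most sterol genes from Fdft1 on, and the FBS day 10 columns over Me1, Scd1, Scd2 and Elovl6.

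Probes of 1 gene did not always tell the same story. At day 3 the probes of 7 of the 19 genes with several probes had arm differences of opposite sign, at day 0 those of 11 and at day 10 those of 6. At day 3, 7 of the 19 genes had a called probe, 1 of them, Hsd17b7, at all its probes, and 2, Cyp51 and Stard4, with a called probe and another of opposite sign. Over the 12 arrays the 2 Pmvk probes correlated at 0.98 and those of Nsdhl at 0.55 to 0.97, but those of Acaca at -0.65 to 0.54 and those of Fdps at 0.05. The count of 14 sterol probes thus rests on 9 genes, of which Hmgcs1, Lss, Cyp51 and Nsdhl had at least 1 uncalled probe, as did Fdft1.

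The 2 lines differed at 1 member, Hmgcs1 A_52_P119039, where Dazl-GFP was higher by 1.54 ± 0.22 (limma adjusted p = 0.0153), beside 2.5% of all probes called. Of the 31458 probes tested, 5392 had an unadjusted limma p under 0.05. The other 2 Hmgcs1 probes were not called, 7 members had an unadjusted p under 0.05, and the call was lost with slide as a block or without either serum-free day 0 array.

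Other genes of the pathway had calls in both directions at day 3, beside 11.2% of all probes called higher and 12.8% lower. Of 22 tested probes for other genes of sterol synthesis and uptake, 3 were called higher (13.6%) and 1 lower (4.5%), with a median of 0.23. Soat1, which esterifies cholesterol, had 1.69 ± 0.17 at A_51_P111612 and -1.11 ± 0.20 at A_51_P391754. Of 14 probes for other SREBP control genes 3 were called higher (21.4%) and 1 lower (7.1%), with a median of 0.53, and with so few probes nothing is read from these counts. Mbtps1, a protease that releases SREBP, changed by -0.95 ± 0.24. The called probe of Mbtps2, the other such protease, was well above background on 5 of the 12 arrays, at day 3 on both serum-free arrays and on neither FBS array, which gives a level at least 1.58-fold higher in serum-free medium, with mean relative signals of 0.0342 and 0.0166 (limma adjusted p = 0.0439). Lpin1, a phosphatidate phosphatase, changed by 0.91 ± 0.25.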

How the data were processed

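RNA of 2 ES cell lines, in 2 arms at 3 times, was measured on 12 Agilent one-colour (Cy3) arrays. Per the file headers, the authors' scanner files come from Feature Extraction 9.1.3.1, and the deposited processed signal is an intensity from which a spatial detrending surface was subtracted. The series table the authors deposited holds a ratio: in 40759 of its 45018 rows, within 0.001 on the log2 scale, it equals the background-subtracted signal over the array median, and its non-positive values are set to a small floor. For this match, and where the series table was fitted, values under 0.1 were raised to 0.1, so smaller values were not compared.

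Control spots and outlier-flagged spots were left out, spots of a probe were averaged, and log2 of the deposited processed signal minus the 75th percentile of its array was used. A probe entered the fit if 2 or more arrays had it well above background, which left 31458 of 41174. These were fitted with limma 3.58.1 (R 4.3.3; lmFit and eBayes) on 6 groups plus cell line, with 5 residual and 2.59 prior degrees of freedom, and p-values were adjusted by Benjamini-Hochberg at 0.05 over all probes tested. The replicate number in the labels stands for the cell line, and the line term is the replicate block. Same-line arrays deviated together at r from -0.06 to 0.56 (median 0.18, over 0.1 in 13 of 15 pairs of groups). The script was tested on simulated data. Probes carry the file's gene name, brought up to date through RefSeq accessions where these matched (22951 probes). Figures used matplotlib 3.10.9.

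Every listed gene is reported at all its probes, with values on every array for those called in a comparison, and at most 3 called genes are named from each other list, less any that are not reported here. The members and lists were chosen with earlier results of these data known. A spot not well above background gives only a bound: at least N-fold sets the bright group's mean against, on each array of the dim group, the higher of the lowest signal among probes well above background and the probe's own. The alternatives tried were the authors' series table, normexp (offset 50) for the background, quantile scaling, other filters, 1 probe per gene, no replicate block, slide as a block and leaving out each array. The precision is limited by 2 arrays per group.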

Additional observations from a re-analysis of the deposited data

Results flagged for a closer look

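Ebp, a sterol isomerase, was singled out because its day 3 change differed between the arms in a test of that difference. The serum-free change minus the FBS change was -1.55 ± 0.24 on the log2 scale (limma adjusted p = 0.04), and it was -1.34 in Stella-GFP and -1.77 in Dazl-GFP. Its relative signal in FBS went from 13.0 and 9.62 at day 0 to 27.8 and 27.4 at day 3, whereas in serum-free medium it went from 26.5 and 22.8 to 22.4 and 19.1. The sign was the same under all 8 other settings and with any 1 array left out. The call held under 4 of those settings, and with 1 of the 12 arrays left out, the FBS day 0 Stella-GFP array; the adjusted p was 0.125 with slide as a block. Groups of 2 arrays are too small for a test of single arrays that stand apart.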

How the results depend on the processing

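The counts of called member probes at days 0, 3 and 10 between arms were 1, 17 and 5. They became 1, 20 and 5 after quantile normalization, 2, 27 and 8 after normexp background correction, 1, 22 and 4 with values from the authors' series table, 0, 14 and 2 with no filter, 2, 21 and 6 with probes above background on all arrays, and 1, 10 and 4 with 1 probe per gene. At day 3, of the 17, these settings kept 16, 15, 17, 14, 16 and 10. With probes above background on all arrays and with 1 probe per gene, the probes not kept were not tested, and all those tested kept their call. With slide as a block the counts were 0, 3 and 0. Cell line is the replicate block, and with no replicate block the pairing of arrays is dropped and the counts were 0, 13 and 2. The time comparisons (FBS day 3 and day 10, serum-free day 3 and day 10, each against day 0) gave 2, 4, 8 and 0. They became 2, 5, 11 and 0 after quantile normalization, 17, 13, 18 and 1 after normexp, 1, 5, 7 and 0 with the series table, 2, 4, 5 and 0 with no filter, 4, 10, 11 and 0 with all arrays above background, 2, 4, 6 and 0 with 1 probe per gene, 2, 4, 3 and 0 with no replicate block and 0, 2, 6 and 0 with slide as a block. The difference of day 3 changes (1) became 12 after normexp, 4 with all arrays above background, 1 with the series table and with 1 probe per gene, and 0 otherwise, that of day 10 changes (0) became 2 after normexp, and the line difference (1) became 4 after normexp and 0 with all arrays above background, 1 probe per gene or slide as a block. Leaving out each array in turn gave 0 to 1, 0 to 23 and 0 to 5 between arms, 0 to 3, 0 to 7, 0 to 12 and 0 over time, 0 to 7 and 0 for the differences of changes, and 0 to 2 between lines. Between arms at days 3 and 10 and over time, the zeros came when an array of the 2 groups compared was left out (serum-free day 10 had none called throughout). The day 0 count was 1 without FBS day 0 Dazl-GFP, a probe other than that of Ebp, and 0 without any other array. The Acaca probe A_51_P439426, above background on 7 arrays, reversed after normexp, to -0.51 at day 3 between arms (limma adjusted p = 0.0189) and 0.52 at day 3 in FBS (limma adjusted p = 0.0175), and the cause was not tested. The sterol median at day 3 lay between 0.59 and 0.73 with any 1 array left out, and the fatty acid median at day 10 between -0.42 and -0.35. Signal over background limits the 4 dim probes of Hmgcs1, Fdft1, Acly and Acaca. Normexp also moved the whole array. At day 3 in FBS 83.0% of all probes called were then higher, against 50.6% in the main fit. The median of all probes was 0.29 there, against 0.05. The share of all probes called under each setting is not given, so the change in a count between settings is not read as a result about the members.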

Other observations

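Of 7 tested probes for LXR and sterol export, 2 were called lower in serum-free medium at day 3 (28.6%) and none higher, beside 12.8% of all probes called lower. With 7 probes nothing is read from that share. They were Abcg1, a sterol exporter, with -1.43 ± 0.35, and Nr1h3, the receptor LXR-alpha, with -1.17 ± 0.19 on the log2 scale (limma adjusted p = 0.0254 and 0.00758). Abca1, another exporter, was lower at day 10 by -1.77 ± 0.38 (limma adjusted p = 0.0451).

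Of 37 tested probes for other fatty acid genes, 2 were called higher (5.4%) and 5 lower (13.5%) at day 3, beside 11.2% and 12.8% of all probes, and 5 lower (13.5%) at day 10, beside 3.01%. Fads3, a relative of Fads1 and Fads2, had a change of -3.82 ± 0.29 at day 3 (limma adjusted p = 0.00155) and of -1.78 ± 0.29 at day 10 at A_51_P464029, which was above background on all 12 arrays. Its other probe, A_52_P451796, was not well above background on either serum-free day 3 array and was at least 10.1-fold lower there than in FBS, with mean relative signals of 0.0104 and 0.149 (limma adjusted p = 0.00227). At day 10 it was above background on 1 of 2 serum-free arrays and had a change of -1.72 ± 0.38. The fibroblast markers summed to 90.4 to 155 in FBS and 41.9 to 48.9 in serum-free medium at day 3, and their part in these differences was not tested. Thrsp, a regulator of lipogenesis, was lower at day 10 by -1.89 ± 0.20 (limma adjusted p = 0.00646), and Elovl4, an elongase of very long fatty acids, by -1.67 ± 0.24. Of 17 tested probes for fatty acid oxidation 2 were called higher (11.8%) and 2 lower (11.8%) at day 3, shares near those of all probes. Acadl, an acyl-CoA dehydrogenase, had 1.14 and Acadvl, its very-long-chain relative, -0.68.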
